A study of Mus musculus with 10 samples.

Results

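The genes described are the 7 keratins that mark the layers of the epidermis, Krt5, Krt14 and Krt15 of the basal layer and Krt1, Krt10, Krt2 and Krt77 of the suprabasal layers, chosen by gene symbol. All 7 were among the 18994 genes listed, and all 7 passed the filter on low counts. They were measured by mRNA sequencing in the cheek skin of 10 mice, all C57BL/6, 6 to 8 weeks old and shaved on the cheek 3 days before. The right cheek of each mouse was injected intradermally with 5 µL, holding 1 µg of MMP9 in 5 mice and vehicle alone in 5, and the tissue was taken 4 hours later. MMP9, or matrix metalloproteinase 9, is a secreted gelatinase that was given as protein, so no allele differs between the groups. The labels number separate mice, 1 library each, and no source used here states the mice's sex or what the vehicle was made of.

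Keratins are the intermediate filament proteins of epithelia. A type I (acidic) keratin pairs with a type II (neutral to basic) keratin, and the pairs assemble into filaments that are anchored at desmosomes and hemidesmosomes. Dividing keratinocytes of the basal layer make the pair of Krt5 (type II) and Krt14 (type I), and cells that leave the basal layer switch to the pair of Krt1 (type II) and Krt10 (type I). Krt15 is a second type I keratin of basal cells and is also high in the hair follicle bulge, where stem cells reside. Krt2 is a type II keratin of the upper suprabasal layers, which in mice is found mainly in ear, tail and sole skin. Krt77 is a type II keratin of differentiated epidermis in mice. In the RefSeq annotation of GRCm38.p6, the type II genes Krt1, Krt2, Krt5 and Krt77 lie on chromosome 15 and the type I genes Krt10, Krt14 and Krt15 on chromosome 11.

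The proximal promoters are shown so that 2 of the 3 basal genes can be set beside 3 of the 4 suprabasal genes, Krt15 and Krt1 not being included. For these 5 genes, the 100 bases before the annotated start are printed from RefSeq (GRCm38.p6, minus strand, 5′ to 3′), with each TATATA in capitals.
Krt5, chr15:101712906-101713005: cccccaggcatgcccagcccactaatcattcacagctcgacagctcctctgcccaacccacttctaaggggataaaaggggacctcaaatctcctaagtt
Krt14, chr11:100206031-100206130: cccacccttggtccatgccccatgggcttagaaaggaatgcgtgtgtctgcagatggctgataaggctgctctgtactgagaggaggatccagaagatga
Krt10, chr11:99389365-99389464: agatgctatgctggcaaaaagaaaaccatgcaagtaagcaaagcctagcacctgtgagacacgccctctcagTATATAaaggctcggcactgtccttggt
Krt2, chr15:101818170-101818269: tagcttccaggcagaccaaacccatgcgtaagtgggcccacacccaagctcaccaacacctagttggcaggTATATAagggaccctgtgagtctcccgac
Krt77, chr15:101869706-101869805: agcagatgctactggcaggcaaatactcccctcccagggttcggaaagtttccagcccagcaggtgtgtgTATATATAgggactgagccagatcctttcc

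The letters TATATA, chosen after the sequences had been seen, occurred in the windows of the suprabasal genes Krt10, Krt2 and Krt77 and not in those of the basal genes Krt5 and Krt14. Counted from the annotated start, the match began at base -28 in Krt10, at -29 in Krt2, and at -30 and again, overlapping, at -28 in Krt77. The Krt5 window holds the similar letters ATAAAA at nearly the same distance from the start, so the split depends on the letters chosen. The share of promoters with ATAAAA was not counted. TATATA reads the same on both strands, and it was present in 5.25% of 32851 promoters over 250 bases and in 0.88% between 40 and 21 bases before the start. Over the 250 bases, on both strands, TATAAA was found only in Krt10 among these 5, where it overlaps TATATA, against 12.4% of all promoters. GCCNNNGGC (13.7% of all promoters), TGANTCA (6.75%) and GGGCGG (32.7%) were found in none of the 5. These are matches of letters and not measured binding sites.

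The libraries held between 17121541 and 19443099 estimated counts, so the 6 abundant keratins were each read at least 10239 times per library and Krt2 between 11 and 44.2 times. Levels are given as CPM (counts scaled to library size with TMM factors) where libraries are compared, and as TPM (scaled also by transcript length) where genes are compared. MMP9 replicate 4 had a TMM factor of 0.843, against 0.993 to 1.05 in the other 9 libraries. Its keratin values were low in TPM beside those in CPM. Krt5 stood there at 1482 TPM and 2914 CPM, against 2282 TPM and 3029 CPM in vehicle replicate 1. The tissue was skin with much muscle: the summed level of 12 skeletal muscle genes ran from 18284 to 35552 CPM in vehicle mice and from 18103 to 35668 CPM in MMP9 mice. The oral mucosa keratins Krt4, Krt13 and Krt76 had at most 1.11, 0.416 and 0.219 CPM in any library. The same list holds Krt36 and Krt84, which reached 21.4 and 51.7 CPM. Both were lowest in vehicle replicate 2 and MMP9 replicate 1, the libraries with few hair transcripts. Krt36 had 0.164 and 0.259 CPM there, and Krt84 1.31 and 1.71 CPM. The summed level of the list ran from 3.39 to 26.8 CPM in vehicle and from 3.11 to 70.1 CPM (replicate 5) in MMP9. None of its genes passed the test, and its part in the keratin values was not tested. In addition, the footpad keratin Krt9 had at most 0.416 CPM. In whole tissue, fewer cells of a type and less RNA per cell cannot be told apart.

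None of the 7 keratins changed detectably 4 hours after MMP9. Their log2 fold changes, MMP9 over vehicle, lay between -0.16 (Krt1) and 0.44 (Krt2), and every edgeR adjusted p was at least 0.981. Over all 15250 genes tested, the same test called 0 genes, or 0%, and 487 genes (3.19%) had an unadjusted p under 0.05, among them none of the 7. DESeq2 tested more genes, 18945. It called 1 of them, not a keratin described here, and had 620 at an unadjusted p under 0.05. For Krt5, Krt10, Krt15 and Krt77 the 95% intervals limit any change to between 0.721-fold and 1.37-fold, whereas Krt1 and Krt2 were measured less sharply. The groups overlapped for each of the 7 genes, and over all genes tested they did not overlap for 86 (0.564%).

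**Figure D1:**
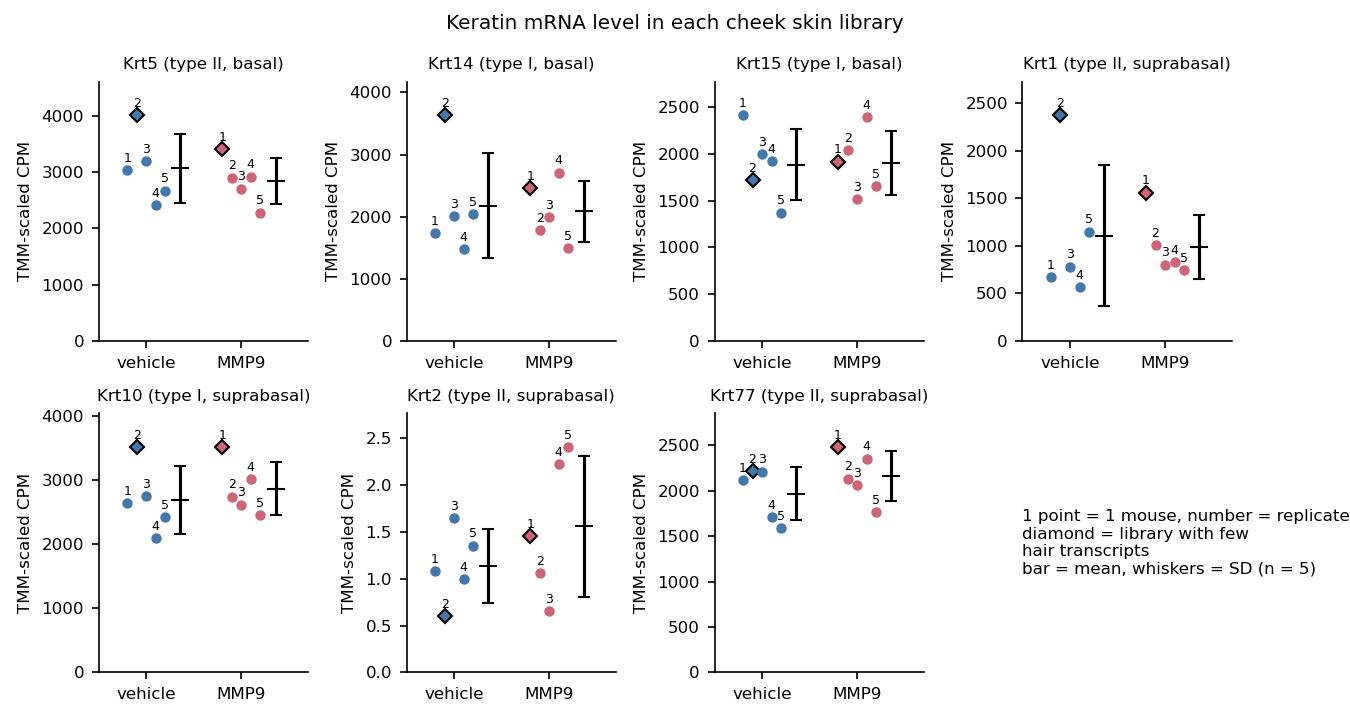
TMM-scaled CPM of each keratin (vertical axis, linear from 0) in the 5 vehicle and 5 MMP9 libraries, 1 point per mouse with its replicate number, a short bar for the mean and whiskers for the SD (n = 5), and diamonds for the libraries with few hair transcripts. The groups overlap in all 7 panels, and vehicle replicate 2 stands high for Krt14 (3631 CPM) and Krt1 (2374 CPM).

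Krt5, the type II keratin of the basal pair, stood at 3029, 4004, 3195, 2408 and 2665 CPM in vehicle mice 1 to 5 and at 3404, 2898, 2701, 2914 and 2276 CPM in MMP9 mice 1 to 5. The highest value was that of vehicle replicate 2 and the lowest that of MMP9 replicate 5. The log2 fold change was -0.11 (95% interval -0.47 to 0.26), with an edgeR adjusted p of 0.981.

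Krt14, its type I partner, stood at 1739, 3631, 2009, 1474 and 2035 CPM in vehicle and at 2460, 1779, 1989, 2709 and 1496 CPM in MMP9. Vehicle replicate 2 lay far above the other 4 vehicle mice, which ran from 1474 to 2035 CPM. The log2 fold change was -0.06 (95% interval -0.62 to 0.49, edgeR adjusted p 0.990) and went to 0.20 without vehicle replicate 2. Reads of Krt14 can be confused with those of close relatives: 14.4% of the distinct 50-base windows of its transcript, the length of the reads, occur also in transcripts of Krt16 or Krt17 (GENCODE M21). For Krt5 this share was 12.2%, with Krt6a, Krt6b and 3 gene models. It was 2.37% for Krt10 (with the gene model Gm11940), 0.666% for Krt15, and 0% for Krt1, Krt2 and Krt77.

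Krt15, the other basal type I keratin, stood at 2414, 1723, 1999, 1924 and 1374 CPM in vehicle and at 1916, 2042, 1514, 2392 and 1657 CPM in MMP9. Both groups covered nearly the same range, and vehicle replicate 2, high for Krt5 and Krt14, was second lowest of its group here. The group means were 1887 ± 381 and 1905 ± 343 CPM (SD, n = 5), a log2 fold change of 0.01 (95% interval -0.37 to 0.40, edgeR adjusted p 0.998) whose sign turned in 8 of 22 alternatives.

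Krt1, the type II keratin of the suprabasal pair, varied most among the 6 abundant genes. It stood at 673, 2374, 781, 564 and 1149 CPM in vehicle and at 1560, 1010, 803, 829 and 744 CPM in MMP9, a 4.21-fold range over the 10 libraries. The 2 highest values were those of vehicle replicate 2 and MMP9 replicate 1. The log2 fold change of -0.16 had a 95% interval that runs, as a fold, from 0.499 to 1.60 (edgeR adjusted p 0.986), and it was 0.32 without vehicle replicate 2 and -0.39 without MMP9 replicate 1.

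Krt10, its type I partner, was far steadier, at 2643, 3512, 2750, 2091 and 2421 CPM in vehicle and at 3517, 2741, 2616, 3011 and 2449 CPM in MMP9. The same libraries were highest as for Krt1, but the whole range was 1.68-fold. The log2 fold change was 0.10 (95% interval -0.26 to 0.45, edgeR adjusted p 0.981).

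Krt77 stood at 2113, 2216, 2210, 1710 and 1591 CPM in vehicle and at 2482, 2132, 2059, 2353 and 1766 CPM in MMP9, the narrowest range of the 7 genes at 1.56-fold. MMP9 replicates 1 and 4 lay above every vehicle mouse, and the other 3 MMP9 mice lay within the vehicle range. The log2 fold change was 0.13 (95% interval -0.18 to 0.45, edgeR adjusted p 0.981).

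Krt2 was very low, at 1.08, 0.601, 1.65, 0.991 and 1.35 CPM in vehicle and at 1.45, 1.06, 0.650, 2.22 and 2.40 CPM in MMP9. MMP9 replicates 4 and 5 lay above every vehicle mouse, while MMP9 replicate 3 was below 4 of the 5. Its log2 fold change of 0.44 had a 95% interval from -0.38 to 1.26 (edgeR adjusted p 0.981), which leaves a range from 0.768-fold to 2.40-fold.

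**Figure D2:**
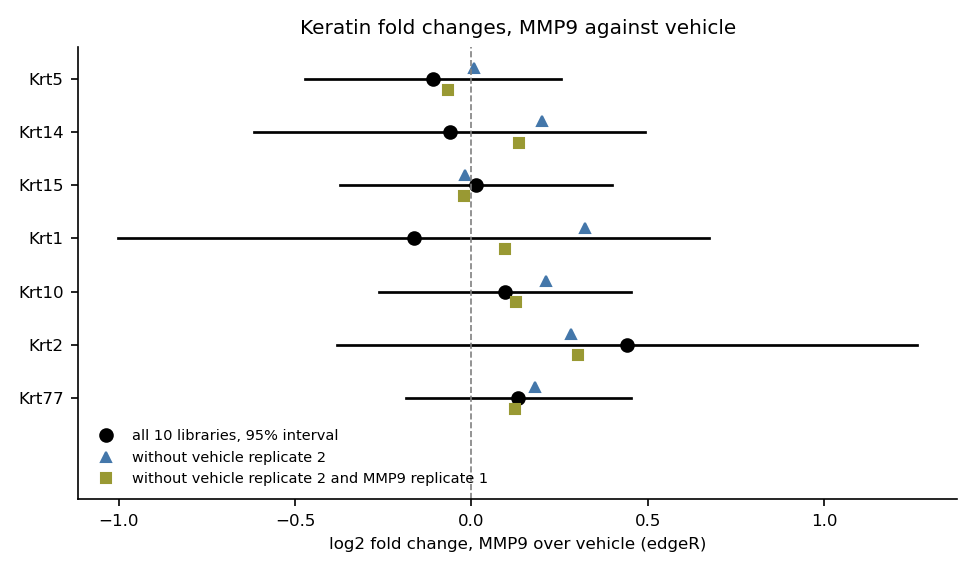
Log2 fold change of each keratin, MMP9 over vehicle, from edgeR (black point, line for the 95% interval, 10 libraries), with the value without vehicle replicate 2 (triangle) and without both vehicle replicate 2 and MMP9 replicate 1 (square). Every interval crosses 0, and without vehicle replicate 2 Krt14 and Krt1 pass from below 0 to above it, Krt5 just does so and Krt15 passes from above to below.

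By TPM, which allows genes to be compared, the order of the mean levels over all 10 libraries was Krt14 (2544 TPM), Krt5 (2229), Krt10 (2205), Krt15 (1826), Krt77 (1331), Krt1 (720) and Krt2 (0.909). The top of this order was not settled: Krt14 exceeded Krt5 in 7 of 10 libraries, Krt5 exceeded Krt10 in 6, and Krt10 exceeded Krt15 in 8. Below that the order was firm, with Krt15 above Krt77 in 10 of 10 libraries, Krt77 above Krt1 in 9 and Krt1 above Krt2 in 10. The exception was vehicle replicate 2, in which Krt1 (1646 TPM) exceeded Krt77 (1472 TPM). Among all 18994 genes Krt14 ranked 56th by mean TPM and Krt1 216th, while Krt2 ranked 14247th. The most abundant suprabasal type II keratin of this cheek skin was thus Krt77, with 1294 ± 195 TPM (vehicle) and 1368 ± 283 TPM (MMP9; SD, n = 5), against 766 ± 518 and 674 ± 302 TPM for Krt1.

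Together the 7 keratins made up between 0.832% and 1.54% of all TPM in a library, on average 1.11% ± 0.258 for vehicle and 1.06% ± 0.227 for MMP9 (SD, n = 5). The highest shares were those of vehicle replicate 2 (1.54%) and MMP9 replicate 1 (1.40%). The lowest, 0.832% in MMP9 replicate 4, belongs to the TPM scale. In CPM this library was above the MMP9 mean for each keratin except Krt1 (829 against 989 CPM), as for Krt14 (2709 against 2087 CPM). The type II genes summed to less than the type I genes in every library, with a log2 ratio of -0.62 ± 0.0518 in vehicle and -0.65 ± 0.151 in MMP9, and the lowest value was -0.90 in MMP9 replicate 4.

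**Figure D3:**
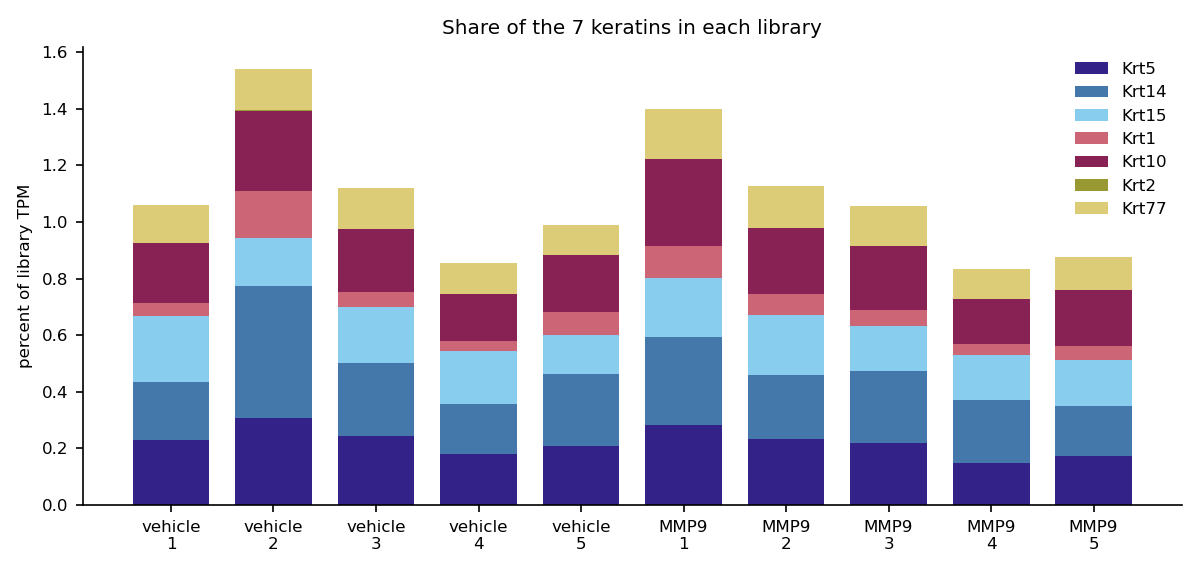
Share of each keratin in the TPM of each library (vertical axis in percent, linear from 0, stacked), 5 vehicle libraries at the left and 5 MMP9 libraries at the right. The total runs from 0.832% in MMP9 replicate 4, whose TPM values are low beside its CPM values, to 1.54% in vehicle replicate 2. Krt2 is too low to be seen.

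In TPM, the balance between the differentiated and the basal pair varied more among MMP9 mice than among vehicle mice. The log2 ratio of Krt1 + Krt10 to Krt5 + Krt14, in TPM, was -0.77, -0.78, -0.86, -0.80 and -0.71 in vehicle mice 1 to 5 and -0.49, -0.58, -0.74, -0.90 and -0.49 in MMP9 mice 1 to 5. MMP9 replicates 1, 2 and 5 lay above all vehicle mice, and MMP9 replicate 4 lay below them all. The low place of MMP9 replicate 4 belongs to the TPM scale. In CPM it lay within the vehicle range, and the SDs of the groups were nearer to each other. The vehicle mean in TPM was -0.78 ± 0.0563 and the MMP9 mean -0.64 ± 0.177 (SD, n = 5). The difference of 0.14 was less than the SD within the MMP9 group and more than that within the vehicle group. This ratio was not tested, since it is a score over chosen genes.

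The partners of a pair did not keep step equally. Over the 10 libraries the log2 TPM ratio of Krt5 to Krt10, a basal and a suprabasal gene, had an SD of 0.12, the smallest of the 21 pairs, followed by Krt10 to Krt77 (0.13) and Krt5 to Krt77 (0.17). The filament partners Krt5 and Krt14 had 0.26, and Krt1 and Krt10 had 0.45. Krt1 reached 0.577 of the Krt10 level in vehicle replicate 2 and between 0.217 and 0.405 of it in the other 9 libraries. Krt14 and Krt15, the basal type I genes, had an SD of 0.49, with Krt15 at 0.370 of the Krt14 level in vehicle replicate 2 and at 1.14 times it in vehicle replicate 1. Without vehicle replicate 2 and MMP9 replicate 1, the SD was 0.29 for Krt1 and Krt10, 0.24 for Krt5 and Krt14, and 0.12 for Krt5 and Krt10. These are descriptions of 10 libraries, in which the ratio is free of library size but not of tissue make-up.

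**Figure D4:**
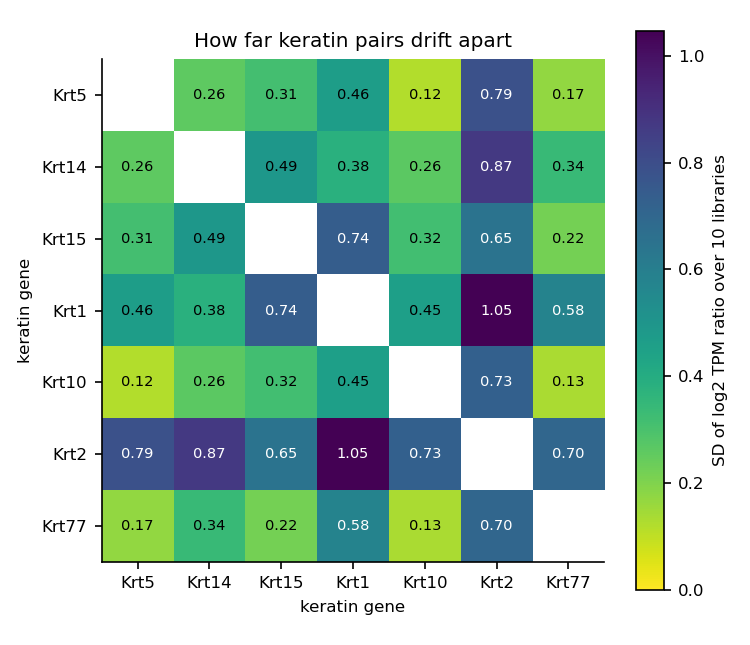
SD over the 10 libraries of the log2 TPM ratio of each pair of keratins (colour scale and printed numbers, 21 pairs, both axes list the 7 genes). Krt5, Krt10 and Krt77 form the tightest trio (0.12 to 0.17), and the 6 pairs with Krt2 lie between 0.65 and 1.05.

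Hair transcripts set vehicle replicate 2 and MMP9 replicate 1 apart from the other 8 libraries, and both libraries were also high for several keratins. The shaft and inner root sheath of the hair are built by follicles in their growth phase. The summed level of 9 hair shaft keratins was 8.63 CPM in vehicle replicate 2 and 8.70 CPM in MMP9 replicate 1, against 386 to 3410 CPM in the other 8 libraries. That of 8 inner root sheath genes was 15.9 and 20.1 CPM, against 177 to 5059 CPM. Krt1 stood at 2374 and 1560 CPM in these libraries, against a range of 564 to 1149 CPM in the other 8. Krt5 (4004 and 3404 CPM) and Krt10 (3512 and 3517 CPM) were also above the other 8 libraries, which ran up to 3195 and 3011 CPM. Krt14 was above all of them in vehicle replicate 2 only, since MMP9 replicate 4 had 2709 CPM against 2460 CPM in MMP9 replicate 1. Krt15 did not follow, at 1723 and 1916 CPM against 1374 to 2414 CPM. Hair was not the only difference. The 12 muscle genes summed to 19625 and 18103 CPM in these libraries, against 18284 to 35668 CPM in the other 8. The 6 adipocyte genes summed to 1354 and 1135 CPM, against 1025 to 3696 CPM. For 15 plakin, desmosome and hemidesmosome genes the sums were 6949 and 6812 CPM, against 4368 to 6470 CPM. The part of the hair follicles, or of other tissue make-up, in the keratin levels was not tested.

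**Figure D5:**
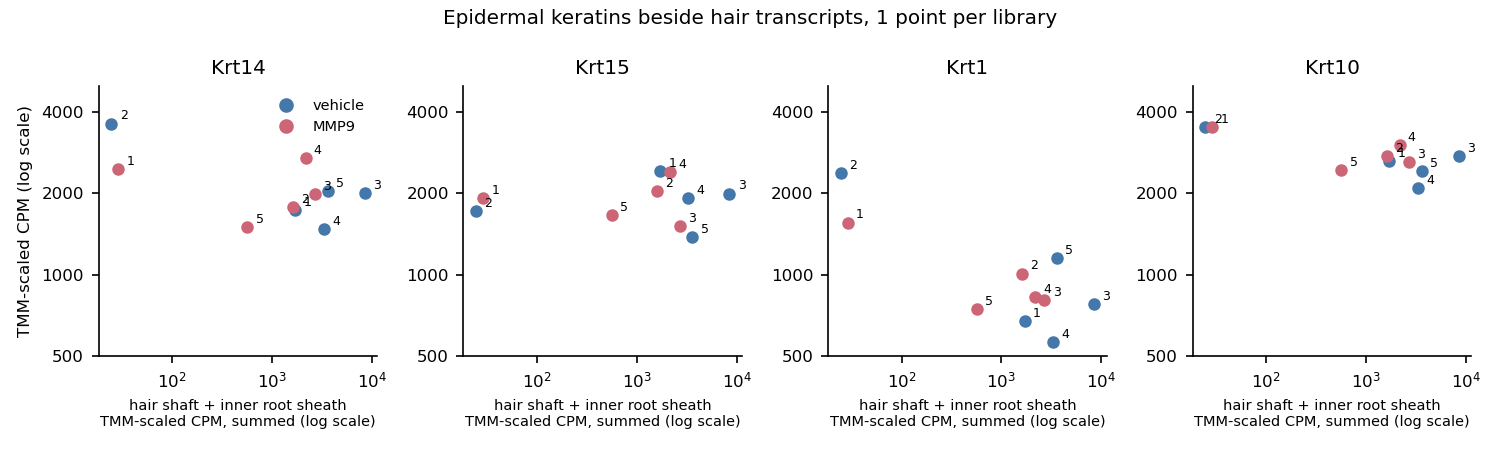
Summed TMM-scaled CPM of 9 hair shaft and 8 inner root sheath genes (horizontal axis, log scale) against TMM-scaled CPM of Krt14, Krt15, Krt1 and Krt10 (vertical axis, log scale), 1 point per library with its replicate number. Vehicle replicate 2 and MMP9 replicate 1, at the far left, are the highest libraries for Krt1 and Krt10 and lie within the others for Krt15.

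Without these libraries, the group means came closer for Krt1, at 792 ± 254 CPM in 4 vehicle mice and 846 ± 115 CPM in 4 MMP9 mice (SD). The log2 fold change of Krt1 was then 0.10 and that of Krt14 0.14, both of them negative with all 10 libraries, and that of Krt15 turned to -0.02. Krt5 had -0.07, Krt10 0.13, Krt77 0.12 and Krt2 0.30, and the lowest edgeR adjusted p of the 7 was 0.951.

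Vehicle replicate 2 was also the highest library for 3 of 4 listed keratins of activated keratinocytes. Krt17, the exception, stood at 1271 CPM there, within the range of 831 to 1564 CPM of the 8 libraries rich in hair transcripts. Krt6a stood at 711 CPM there, against 191 to 595 CPM in the 8 libraries rich in hair transcripts and 357 CPM in MMP9 replicate 1. Krt16 and Krt6b, which are named because they share sequence windows with Krt14 and Krt5 and were picked with their values in view, stood at 474 and 462 CPM, against at most 258 and 166 CPM in the 8 libraries. The sum of the sebaceous gland list was highest there as well (10359 CPM over 8 genes, against 5243 to 8801 CPM in the 8), while MMP9 replicate 1 was at 5232 CPM. Scd1 alone gave 8265 CPM of the 10359, and the genes of the list did not move together. Elovl3 was above the 8 libraries (583 against 117 to 247 CPM), and Mgst1 and Cidea lay within them. Scd3, picked with its values in view, was below them (79.4 against 432 to 768 CPM). The part of activated keratinocytes, of sebaceous cells or of shared reads in the high Krt14 value was not tested.

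Other genes of the epidermis did not pass the test either. Of 22 transcription factors and Notch pathway genes linked to keratinocyte fate, 0 passed in either direction, 3 had positive log2 fold changes and the median was -0.14, against 0.01 and 53.7% positive over all genes tested. Cebpa and Cebpb, which act in the switch from basal to suprabasal cells, stood at 262 ± 54.7 and 213 ± 52.8 TPM in vehicle and at 241 ± 33.3 and 180 ± 43.0 TPM in MMP9 (SD, n = 5). Klf4, a factor of the late suprabasal layers, had a log2 fold change of -0.16 (SE 0.12) and Grhl1 of -0.03 (SE 0.11). Of 15 plakin, desmosome and hemidesmosome genes whose proteins hold keratin filaments, 0 passed, 2 were positive and the median was -0.13. Jup, the plakoglobin gene, had a log2 fold change of -0.23 (SE 0.15), Dsp, which encodes desmoplakin, of -0.09 (SE 0.16), and Col17a1, a hemidesmosome collagen, of -0.02 (SE 0.16).

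Of 12 basal keratinocyte genes other than keratins, 3 of which are also in the anchor list and 1 in the regulator list, 0 passed, 1 was positive and the median was -0.17. Their summed level ran from 2397 to 3437 CPM in vehicle and from 2188 to 3183 CPM in MMP9. The medians of these 3 lists were negative in each of the 22 alternatives, but single libraries moved them. Without vehicle replicate 2 they shrank to -0.08 for the regulators, -0.03 for the anchors and -0.09 for the basal genes. In the same order they were -0.09, -0.08 and -0.13 without MMP9 replicate 4. They were -0.12, -0.08 and -0.09 without MMP9 replicate 5. The lowest over all alternatives were -0.22, -0.23 and -0.26. No test of a list was made, and members of a list share their cells. Of 14 spinous and granular layer genes, 0 passed, 6 were positive and the median was -0.03, with a range from -0.11 to 0.12 over the alternatives. The list is led by Krtdap, which is expressed as keratinocytes differentiate, with 8259 ± 990 TPM in vehicle mice against 9589 ± 2678 TPM after MMP9 (SD, n = 5). The summed level of the list ran from 9718 to 14459.5 CPM in the first group and from 9997 to 17268 CPM in the second. The top value was that of MMP9 replicate 4. The other MMP9 mice ran from 9997 to 13485 CPM, within the vehicle range. Without MMP9 replicate 4, 1 of the 14 genes was positive and the median was -0.08.

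Of 12 other epithelial keratins of skin, 0 passed, 3 were positive and the median was -0.10, with a range from -0.17 to -0.02 over the alternatives. Krt17, a keratin of the outer root sheath, had mean levels of 1479 ± 308 TPM (vehicle) and 1344 ± 287 TPM (MMP9; SD, n = 5), close to those of Krt77. Krt79 stood at 758 ± 193 and 680 ± 132 TPM, and Krt80 at 371 ± 54.2 and 350 ± 101 TPM. Mean Krt6a was 516 ± 150 CPM (vehicle) against 313 ± 123 CPM (MMP9; SD, n = 5), a log2 fold change of -0.72 with an edgeR adjusted p of 0.981.

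Markers of other cells were present in both groups, and 0 genes of any list passed. Median log2 fold changes were -1.19 for 9 hair shaft and -1.26 for 8 inner root sheath genes, -0.11 for 10 genes of the bulge and outer root sheath, -0.02 for 8 sebaceous gland genes and 0.01 for 12 skeletal muscle genes. Vehicle replicate 3, the highest library for hair transcripts, weighed on the first pair: without it the medians were -0.62 for hair shaft and -0.59 for inner root sheath genes. With limma-voom the hair shaft median was -0.70. The medians were 0.16 for 8 fibroblast, 0.09 for 6 adipocyte, 0.36 for 10 leukocyte, -0.12 for 6 endothelial and -0.53 for 5 melanocyte genes. Single libraries moved several of these: without vehicle replicate 3 the leukocyte median was 0.16 and the melanocyte median -0.21, and without MMP9 replicate 4 the endothelial median was -0.02. Over all alternatives the fibroblast median ran from 0.05 to 0.31, while the adipocyte median (-0.11 to 0.27), the sebaceous median (-0.12 to 0.20) and the muscle median (-0.12 to 0.13) took both signs. The 4 tested genes of oral mucosa had a median of -0.06 (-0.45 to 0.92 over the alternatives) and the 4 tested genes of simple epithelium and Merkel cells one of -0.28 (-0.38 to 0.10). Krt9 alone made up the footpad list and was below the filter.

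Genes with profiles most like those of the keratins were sought among 14621 genes with a mean of at least 1 CPM, by the root mean square difference of centred log2 CPM over the 10 libraries. The closest to Krt1 were Klk9 (0.22), Casp14 (0.25) and Flg (0.27), where Krt1 itself had an SD of 0.62. Casp14, a protease of cornifying cells, stood at 164 CPM in vehicle replicate 2 and at a median of 42.3 CPM in the 8 libraries rich in hair transcripts, and Flg, which encodes filaggrin, at 532 and 140 CPM. The closest to Krt10 were Pla2g2f (0.07), Hal (0.07) and Tlcd3a (0.08), and those to Krt5 were Mb21d2 (0.08), Elmo3 (0.09) and Hal (0.09), where the keratins had SDs of 0.23 and 0.24. Hal, the histidase gene, was thus named for both. The closest to Krt77 were Elmod1 (0.05), Dsg1a (0.07), a desmosomal cadherin, and Lipm (0.07), where Krt77 had an SD of 0.21.

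The basal type I genes had different neighbours. The closest to Krt14 (SD 0.40) were Sec14l2 (0.15), Klk11 (0.16) and Tmprss4 (0.16), while the closest to Krt15 (SD 0.26) were Zfp949 (0.09), Cdh19 (0.10) and Ptn (0.11). For Krt2 (SD 0.61), whose counts were few, they were Spp1 (0.26), Triqk (0.33) and Tal2 (0.33). Among 289 tested genes with a mean of at least 500 TPM, whose median SD was 0.35, Krt1 had the 11th largest SD and Krt14 the 96th. Krt15, Krt5, Krt10 and Krt77 ranked 225th, 239th, 241st and 256th, among the steadier of the abundant genes.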

How the data were processed

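Per the file headers, the authors deposited estimated read counts, FPKM and TPM per gene for each of 10 libraries. Their 6 columns of group means were not used. The submitters' processing notes name HISAT and GRCm39. The quantifier, its handling of reads shared between genes, strand, annotation, versions and read filters were not given in the sources used here. Per the labels' protocols, poly(A) mRNA was sequenced as single-end reads of 50 bases on a DNBSeq instrument. The deposited TPM values were used as they stood. The deposited FPKM values were used only for the keratin ratios and share, which are the same on both scales.

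The deposited estimated counts were rounded and fitted with edgeR 4.0.16 in R 4.3.3 over the whole table: TMM factors, filterByExpr (15250 of 18994 genes kept, 99.95% of counts), treatment as the only term, the quasi-likelihood test, and Benjamini-Hochberg adjustment over all tested genes at 0.05. The SE is derived from the F statistic, and intervals are at the 95% level. The p-values rest on 5 mice a group. The members and the 18 gene lists were chosen with earlier results of these data known. All 7 members are named, along with up to 4 genes a list by vehicle TPM and the 3 closest profiles per member (log2 CPM, prior count 2). Genes outside this rule are marked as chosen after their values were seen, except Krt13, Krt76 and Krt9, named as defining markers. No 2 libraries were duplicates (mean chi-square per gene at least 18.6, where sampling noise gives about 1). Promoters for 5 of 7 members came from RefSeq (GRCm38.p6), and transcript windows from GENCODE M21. The fit was tested on simulated counts. Alternatives used DESeq2 1.42.0, limma 3.58.1, other scalings, filters and pseudocounts, the mouse number as a block, and fewer libraries.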

Additional observations from a re-analysis of the deposited data

Results flagged for a closer look

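Krt14 in vehicle replicate 2 stood apart from the other 4 vehicle libraries. Its value there was 3631 on the CPM scale and 4634 TPM, and the gap to the next vehicle library was 0.740 and 0.714 of the group's range, where 0.71 is the 95% limit for 5 samples (Dixon). Of 46 groups of values examined, 2 exceeded this limit, both of them this gene on its 2 scales, and chance gives about 1 in 20. Krt1 was also highest in this library, at 2374 CPM, without passing the limit.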

How the results depend on the processing

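The count of called genes was 0 in the reported fit and in 21 of 22 alternatives, and 1 with DESeq2. Of 152 keratin fold changes under alternatives, 0 passed the threshold and 14 turned sign. Leaving out 1 mouse at a time gave log2 fold changes from -0.20 to 0.00701 for Krt5, -0.19 to 0.20 for Krt14, -0.0855 to 0.12 for Krt15, -0.39 to 0.32 for Krt1, 0.00313 to 0.21 for Krt10, 0.22 to 0.64 for Krt2 and 0.06 to 0.20 for Krt77. Without both hair-poor libraries, vehicle replicate 2 and MMP9 replicate 1, Krt14 turned to 0.14, Krt15 to -0.0198 and Krt1 to 0.10. The libraries left out of this fit were picked from their hair values in these data. With limma on log2(TPM + 1), log2(TPM + 0.1) and log2(TPM + 1) with no filter, Krt15 turned to -0.0449 each time. The cause was not tested. Krt2 was below the filter of 1 TPM in the filtered TPM fits and has no value there. Deviations of same-numbered mice had r across genes from -0.24 to 0.46. The hair-poor libraries, vehicle replicate 2 and MMP9 replicate 1, had 0.72. Since tissue make-up can shape these values, they cannot settle whether the numbers pair the samples. With the mouse number as a replicate block 0 genes were called, with log2 fold changes of -0.01 for Krt1 and -0.02 for Krt14. The differences between groups in the 3 log2 ratios and in the keratin share were recomputed under 52 alternatives. Of these, 4 were added after the data were seen, each of them without both hair-poor libraries. None moved a difference by more than the larger of the 2 group SDs, but most could not have done so. Leaving out 1 mouse from a group, or 1 from each, shifts the difference by less in groups of this size. FPKM gives the same values as TPM. Only TMM-scaled CPM could have passed this limit. With it the suprabasal to basal difference was 0.13, Krt15 to Krt14 0.04, type II to type I -0.05 and the share -0.004. The differences in Krt15 to Krt14, type II to type I and keratin share changed sign in some alternatives. In TPM, leaving out MMP9 replicate 4 took the suprabasal to basal difference from 0.14 to 0.21. It took the type II to type I difference from -0.03 to 0.03. Both moves were larger than the vehicle SD. Krt2, at 11 to 44.2 counts a library, carries more counting error than the other keratins.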
